A study of Mus musculus with 5 samples.

Results

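The transcripts described here are 10 genes grouped as homeostasis genes of Muller glia, the radial support cells of the retina. These are Glul, Slc1a3, Aqp4, Kcnj10, Car14, Car2, Abca8a, Dkk3, Clu and Apoe. They concern the handling of glutamate, water, potassium and acid around retinal neurons, or lipids and secreted proteins. The rule that chose them uses their names and no measured value, although it was written with earlier results of these data known. They are 10 of 18193 genes measured. Each gene was read from every probe set that the platform annotation assigns to it alone, 22 in all, and the probe set with the highest mean signal stands for the gene. The study measured total RNA of whole retinas on 5 Affymetrix mouse arrays, each array holding 1 pool. Diabetic replicates 1 and 2 each pooled 4 retinas of 2 mice at 5 weeks of diabetes induced by streptozotocin, which destroys beta cells of the pancreas. Diabetic replicate 3 pooled 6 retinas of 3 mice at 3 to 4 weeks of induced diabetes, for which the labels name no agent. Control replicates 1 and 2 each pooled 4 retinas of 2 age-matched mice that were left untreated and had normal blood glucose. The labels state no strain, sex or age. Because animals were pooled, every spread and p-value below is between pools and not between mice.

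Muller glia span the full thickness of the retina and wrap every neuron. They clear glutamate released at synapses and turn it into glutamine, carry away potassium and water that neurons release, buffer the acid made by photoreceptor metabolism, and supply lipid carried on apolipoproteins. In diabetic retinas these cells are widely studied for loss of potassium channels, altered glutamate clearance and swelling. In whole-retina RNA, fewer cells of a type and less RNA per cell cannot be told apart.

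Levels are given as log2(signal + 120.6), where signal is the brightness of a probe set after the authors' scaling, and differences are diabetic minus control on that scale. The levels of different probe sets are not comparable with each other, so each gene is compared only across pools. All 10 genes lay in the upper 60% of genes by mean level and were tested, with 10916 genes in all. None of the 10 passed an adjusted p of 0.05 (limma, Benjamini-Hochberg adjusted p = 0.999 for each), where 0% of all tested genes passed. At an unadjusted p under 0.05 there were 0 of the 10, and 3.39% of all tested genes. The diabetic and control pools overlapped in all 10 genes, while the groups did not overlap in 18.1% of tested genes. The differences ran from -0.06 for Glul to 0.20 for Abca8a, with a median of 0.05 against 0.01 over all tested genes. Of the 10 differences 8 were above 0, against 51.9% of tested genes. The 95% interval lay within 0.5 log2 units of 0 on both sides for all 10, as it did for 73.7% of tested genes.

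**Figure D1:**
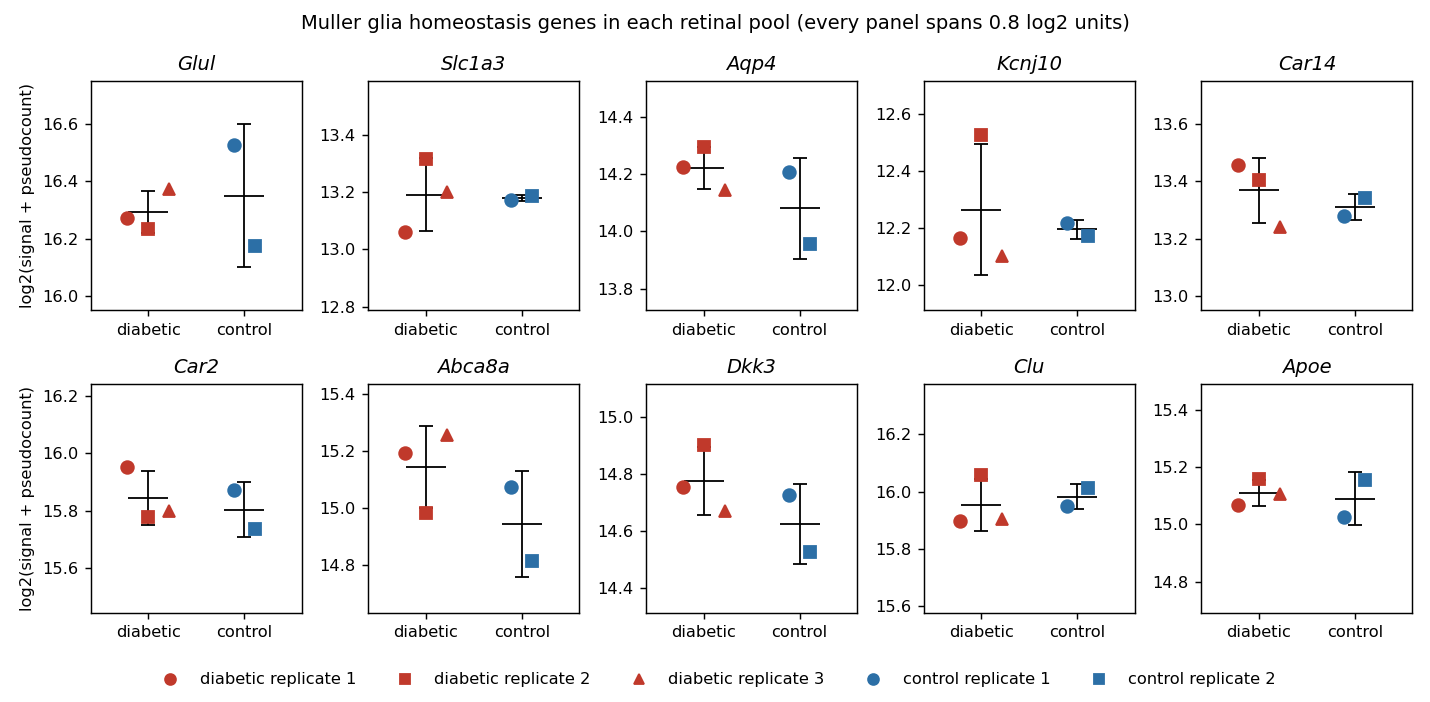
Log2 level of each of the 10 genes in the 3 diabetic pools (red) and the 2 control pools (blue), 1 symbol per pool, with a horizontal line at the group mean and bars of 1 SD (n = 3 and n = 2). Every panel spans 0.8 log2 units and does not start at 0; the groups overlap in all 10 panels, and Apoe has the narrowest spread, 0.13 between its lowest and highest pool.

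Glutamate handling was represented by an enzyme and a transporter. Glul, the glutamine synthetase that converts glutamate and ammonia to glutamine, had log2 levels of 16.27, 16.23 and 16.37 in the diabetic pools, in the order of replicates 1 to 3 as throughout, and of 16.53 and 16.17 in the first and second control pool. All 3 diabetic pools therefore lay between both controls. The difference was -0.06 (SE 0.10, 95% interval -0.29 to 0.18), turning to 0.12 when control replicate 1 was left out and to -0.23 when control replicate 2 was. Slc1a3, the glutamate and aspartate transporter GLAST of Muller glia, was at 13.06, 13.32 and 13.20 in the diabetic pools and at 13.17 and 13.19 in the controls. Here the controls were close together and the diabetic pools spread to both sides of them, for a difference of 0.01 (SE 0.10, 95% interval -0.21 to 0.24). Diabetic replicate 2 was the highest pool and diabetic replicate 1 the lowest, although both came from mice at 5 weeks. Leaving out the former gave -0.05 and leaving out the latter 0.08.

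Aqp4 and Kcnj10 serve water and potassium. Aqp4, the water channel of glial endfeet, was at 14.22, 14.29 and 14.15 in the diabetic pools and at 14.21 and 13.96 in the controls. Control replicate 2 alone stood below the other pools, and control replicate 1 lay inside the diabetic range. The difference was 0.14 (SE 0.10, 95% interval -0.08 to 0.36), which was 0.02 with control replicate 2 left out and 0.27 with control replicate 1 left out. Kcnj10, which encodes the inwardly rectifying potassium channel Kir4.1, was at 12.16, 12.53 and 12.10 in the diabetic pools and at 12.22 and 12.17 in the controls. Diabetic replicate 2 was high, and diabetic replicates 1 and 3 lay below both controls. The difference of 0.07 (SE 0.14, 95% interval -0.25 to 0.38) changed sign to -0.06 without diabetic replicate 2.

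Acid handling was represented by 2 carbonic anhydrases, enzymes that interconvert carbon dioxide and bicarbonate. Car14, an enzyme anchored in the membrane of Muller glia and pigment epithelium, was at 13.46, 13.40 and 13.24 in the diabetic pools and at 13.28 and 13.34 in the controls. Diabetic replicates 1 and 2 were above both controls and diabetic replicate 3, of shorter diabetes, was below both. The difference was 0.06 (SE 0.09, 95% interval -0.16 to 0.27), and 0.12 without diabetic replicate 3 or 0.01 without diabetic replicate 1. Car2, the cytosolic enzyme, was at 15.95, 15.78 and 15.80 in the diabetic pools and at 15.87 and 15.74 in the controls. Its pools were interleaved, and the difference was 0.04 (SE 0.08, 95% interval -0.14 to 0.22). Leaving out control replicate 2 gave -0.03, and leaving out control replicate 1 gave 0.11.

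The remaining 4 genes concern lipids and secreted proteins. Abca8a, a transporter of the ABC family that includes lipid exporters, had the largest difference of the 10. It was at 15.19, 14.98 and 15.26 in the diabetic pools and at 15.08 and 14.81 in the controls. Diabetic replicates 1 and 3 were above both controls, and diabetic replicate 2 lay between the controls. The difference was 0.20 (SE 0.11, 95% interval -0.05 to 0.44, limma unadjusted p = 0.0975), a ratio of 1.15 with an interval of 0.969 to 1.36. It was 0.07 with control replicate 2 left out and 0.33 with control replicate 1 left out. Apoe, the main lipoprotein component that glia secrete, was at 15.07, 15.16 and 15.10 in the diabetic pools and at 15.02 and 15.16 in the controls. Of the 10 genes it varied least, and only 7.1% of tested genes had a smaller range over the 5 pools. Its difference was 0.02 (SE 0.07, 95% interval -0.15 to 0.19), and moved to -0.05 with control replicate 1 left out and to 0.09 with control replicate 2 left out.

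Clu, the secreted chaperone and apolipoprotein clusterin, was at 15.90, 16.06 and 15.91 in the diabetic pools and at 15.95 and 16.01 in the controls. Diabetic replicates 1 and 3 were the lowest pools and diabetic replicate 2 the highest. The difference was -0.03 (SE 0.07, 95% interval -0.19 to 0.14), and -0.08 with diabetic replicate 2 left out. Dkk3 is a secreted glycoprotein of the Dickkopf family, some members of which inhibit Wnt signalling. It was at 14.75, 14.90 and 14.67 in the diabetic pools and at 14.73 and 14.53 in the controls. Control replicate 2 was the lowest pool and control replicate 1 lay within the diabetic range. The difference was 0.15 (SE 0.10, 95% interval -0.07 to 0.37), which became 0.05 with control replicate 2 left out and 0.25 with control replicate 1 left out.

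**Figure D2:**
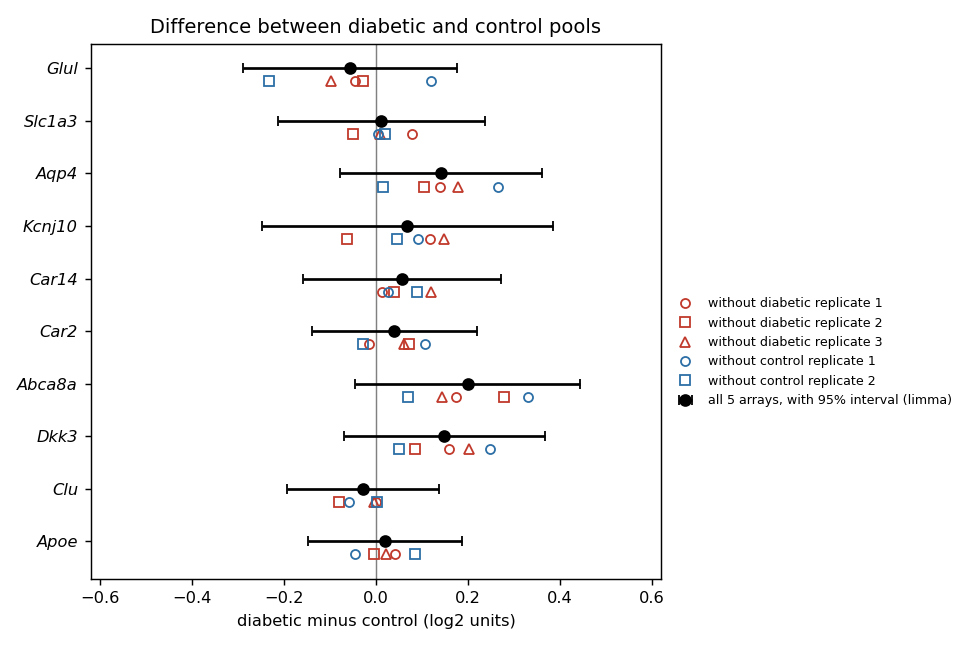
Diabetic minus control difference of each gene in log2 units over all 5 arrays (black, with the limma 95% interval) and with 1 array left out (open symbols: red for a diabetic, blue for a control array). All 10 intervals include 0; leaving out control replicate 2 moved Aqp4 from 0.14 to 0.02 and Abca8a from 0.20 to 0.07.

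The 10 genes did not share 1 order of pools. Diabetic replicate 2 held the highest value of 6 of them (Slc1a3, Aqp4, Kcnj10, Dkk3, Clu and Apoe), where 32.8% of all tested genes were highest in that pool. Control replicate 2 held the lowest value of 5 (Glul, Aqp4, Car2, Abca8a and Dkk3), against 19.2% of tested genes. The median deviation of the 10 genes from their own means was 0.08 in diabetic replicate 2 and -0.08 in control replicate 2, and between -0.02 and 0.00190 in the other pools. The 3 to 4 week pool, diabetic replicate 3, was the highest for Abca8a and the lowest for Kcnj10 and Car14. Duration is represented there by 1 pool and was not tested.

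Several of the 10 genes, among them Car14, Apoe and Clu, are also made by pigment epithelium, and markers of other tissues differed between the pools. The summed signal of 7 pigment epithelium genes, all 7 measured, was 48454 to 74746 in the diabetic pools and 93583 to 139991 in the controls, highest in control replicate 2. Bright genes weigh most in such a sum. Ttr, the brightest of the 7, had the difference of smallest size among the 6 tested (-0.89), and Rgr the largest (-1.997). The summed signal of 7 skeletal muscle genes, all 7 measured, was 60647 in diabetic replicate 3 and 38779 in control replicate 2, against 1898 to 2721 in the other 3 pools. For 5 melanocyte genes, all measured, it was 2672 to 22144 in the diabetic and 4685 to 18348 in the control pools. For 9 microglia genes, which mark other cells that make Apoe, it was 6555 to 8572 in the diabetic and 8592 to 9802 in the control pools. The single microglia genes went both ways. Of 4 tested, 3 had differences below 0 and 1 above 0. Below the filter on dim genes, Aif1 differed by -1.02 and Tmem119 by 0.36. No marker of these lists was listed at 0, and all 5 lens genes lay below the filter on dim genes. Rod genes, which mark the retina itself, had median deviations of -0.11 in both diabetic replicate 2 and control replicate 2 and of 0.05 to 0.08 in the others. All 6 rod genes measured lay above the filter. The part of these tissues in the values of the 10 genes was not tested. Without both arrays of high muscle signal, the median difference of the 10 genes was 0.04. Some single genes moved more than the median: Glul went from -0.06 to -0.27 and Abca8a from 0.20 to 0.01. With only control replicate 2 left out, the lowest pool for both genes, Glul was at -0.23 and Abca8a at 0.07.

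**Figure D3:**
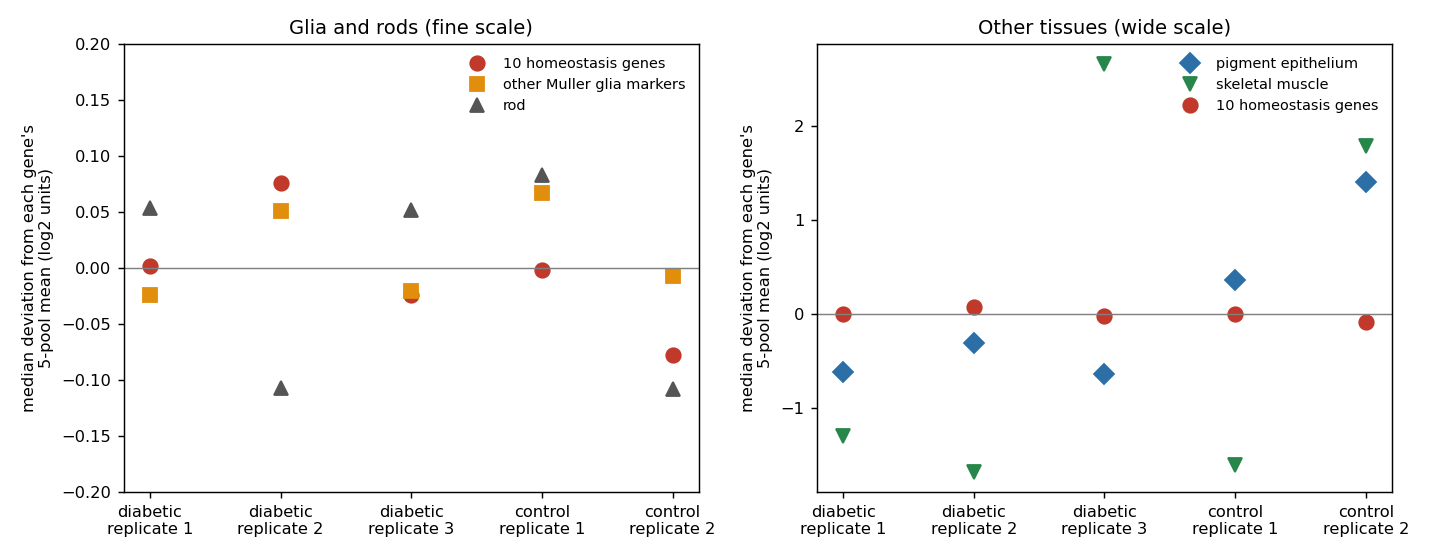
Median deviation of each gene list from its genes' 5-pool means, in log2 units, for the 10 homeostasis genes, other Muller glia markers and rod genes (left, fine scale), and for pigment epithelium and skeletal muscle genes beside the same 10 genes (right, wide scale). The 10 genes stay between -0.08 and 0.08, while the pigment epithelium genes reach 1.41 in control replicate 2 and the muscle genes 2.66 in diabetic replicate 3.

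Other markers of Muller glia were read in the same pools, although several, among them Rlbp1, Rdh10 and Vim, are also made by other cells of the eye. Of 13 listed, 12 were measured and 11 tested, with 0 called by limma, 4 above 0, 7 below 0 and a median of -0.01. Rlbp1, the retinaldehyde-binding protein of Muller glia and pigment epithelium, was at 15.33, 15.48 and 15.13 in the diabetic pools and at 15.45 and 15.34 in the controls. Vim, the intermediate filament vimentin, differed by 0.05 and Sox9, a transcription factor of the lineage, by -0.01. The groups did not overlap for 1 higher gene, Gpr37, an orphan receptor, at 0.19 (limma unadjusted p = 0.0482), where 9.99% of tested genes were higher in this way. They did not overlap for 2 lower genes, where 8.15% of tested genes were lower: Cd9, a tetraspanin, at -0.09 and Rdh10, a retinol dehydrogenase, at -0.34 (limma unadjusted p = 0.00768). Rdh10 was at -0.23 without control replicate 2, beside differences of -0.89 to -1.997 in the 6 tested genes of pigment epithelium, whose part in the Rdh10 value was not tested. Spc25, a kinetochore gene on the same list, was at 9.27 and 9.48 in diabetic replicates 1 and 2, and at 13.16, 12.73 and 12.88 in diabetic replicate 3 and the controls. Astrocyte genes, the other source of Aqp4 and Kcnj10 in retina, had a median of 0.01 over 4 tested members.

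The 22 probe sets show how far the values of a gene differ between its probe sets. There were 5 genes with 1 probe set each (Kcnj10, Car14, Car2, Abca8a and Apoe) and 5 with several, of which 3 (Glul, Slc1a3 and Clu) had probe sets with differences of both signs. The dimmer Glul probe set, 1426235_a_at, differed by 0.10 (SE 0.09), against -0.06 for the brighter one. All 3 probe sets of Aqp4 (0.13 to 0.17) and both of Dkk3 (0.15 and 0.19) had differences above 0 with overlapping groups. Tested on its own among 20967 probe sets, none of the 21 above the filter passed (limma adjusted p = 1.0), where 0% of all did, and 2 did not overlap between groups, both higher in diabetic pools, where 8.58% of tested probe sets were. The first was a probe set of Slc1a3, 1443749_x_at, at 13.16, 13.19 and 13.10 in the diabetic pools and at 12.90 and 12.84 in the controls. It differed by 0.28 (SE 0.09, 95% interval 0.08 to 0.48, limma unadjusted p = 0.0135, and 2.76% of tested probe sets had one under 0.05). Probe set names ending in x_at mark probes that may bind other transcripts, which also holds for the probe set that represents Clu, 1437689_x_at, and for 2 more of Clu, 1454849_x_at and 1437458_x_at. The brighter probe set that represents Slc1a3 differed by 0.01, and the next, 1426340_at, by 0.16 with overlapping groups. The second was 1418626_a_at, the only Clu probe set without that ending, which differed by 0.10 (SE 0.08) while the others of Clu differed by -0.15 to 0.07.

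Some dimmer probe sets were low in diabetic replicate 2. The Slc1a3 probe set 1426341_at had a signal of 87.3 there, against 1154 and 853 in diabetic replicates 1 and 3 and 816 and 429 in the controls. The signal of 87.3 was below the pseudocount of 120.6, the 20th percentile of all values, and so among the dimmest values. A dimmer Aqp4 probe set, 1425382_a_at, was at 12.38, 11.41 and 11.95 in the diabetic pools and at 11.90 and 11.59 in the controls. The dimmer Dkk3 probe set, 1417312_at, was at 14.35, 13.49 and 14.22 in the diabetic pools and at 13.93 and 13.72 in the controls. For all 3 genes the probe set of highest mean was instead highest in diabetic replicate 2. Within that array the dimmer Dkk3 probe set lay 1.41 log2 units below the brighter one, against 0.406 to 0.809 in the other arrays. The gap for 1425382_a_at of Aqp4 was 2.88, against 1.85 to 2.37. For the other dimmer Aqp4 probe set, 1447745_at, the gap was 4.41, inside the 3.93 to 4.67 of the other arrays. Diabetic replicate 2 also had the highest ratio of 3' to 5' signal of the beta-actin control probe sets, 4.32 against 2.01 to 2.71. For the Gapdh control probe sets the ratio was 0.90 there, against 0.78 to 0.84. The part of RNA quality in these values was not tested. Over all genes, 37.5% of 9180 tested probe sets that were not their gene's brightest were lowest in diabetic replicate 2, against 3 of 11 for these genes.

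**Figure D4:**
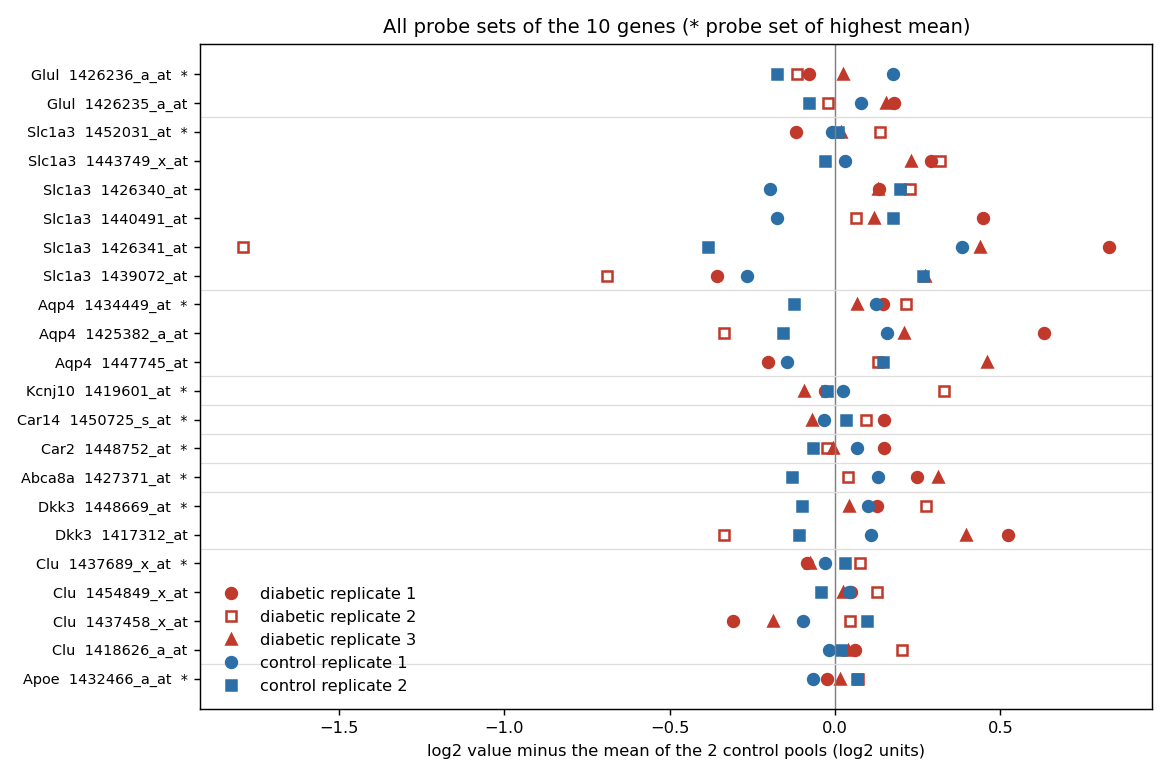
Log2 value of each of the 22 probe sets in each pool minus the mean of the 2 control pools, in log2 units (red for diabetic, blue for control pools, open squares for diabetic replicate 2, asterisks for the probe set that represents the gene). Open squares lie left of all other pools for 1426341_at of Slc1a3, 1425382_a_at of Aqp4 and 1417312_at of Dkk3, and right of all others for the brightest probe sets of these genes; 1443749_x_at of Slc1a3 has all 3 diabetic pools to the right of both controls.

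Companion genes of the same roles were read from 5 lists, and none of their tested members passed (limma, adjusted p = 0.999 for each). The glutamate and amino acid list had 15 of 17 genes measured and 11 tested, 9 above 0 and 2 below 0, with a median of 0.10. Its groups did not overlap in 3 genes, all higher in diabetic pools, where 9.99% of tested genes were: Glud1, glutamate dehydrogenase, Got2, the mitochondrial aspartate aminotransferase, and Slc3a2, a subunit of amino acid exchangers. Got2 was at 14.92, 15.06 and 14.98 in the diabetic pools and at 14.88 and 14.84 in the controls, a difference of 0.12 (SE 0.07). Slc6a11, a GABA transporter, differed by -0.20 (SE 0.14), by -0.06 without control replicate 2 and by -0.35 without control replicate 1. Slc1a2, the glutamate transporter GLT-1 and relative of Slc1a3, was at 14.31, 13.86 and 14.34 in the diabetic pools and at 14.24 and 13.85 in the controls. Diabetic replicate 2 and control replicate 2 were the low pools there, and the difference of 0.12 (SE 0.16) lay between -0.07 and 0.32 with single arrays left out.

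The water and potassium list had 12 genes tested of 16 measured and 17 listed, 5 above 0 and 7 below 0, with a median of -0.09 (0.00830 without both arrays of high muscle signal, and -0.04 without control replicate 2). Kcnk2, a two-pore potassium channel, was at 9.42, 9.70 and 9.50 in the diabetic pools and at 10.13 and 10.08 in the controls. The groups did not overlap, where 8.15% of tested genes were lower in this way, and the difference was -0.56 (SE 0.20, limma unadjusted p = 0.0198). With single arrays left out it lay between -0.64 and -0.50. The groups also did not overlap for Sntb1, a syntrophin, at -0.15. Nor did they for Dtna, a dystrobrevin, higher in diabetic pools at 0.05, where 9.99% of tested genes were higher in this way. Sntb2, a syntrophin, a family that links membrane channels to dystrophin, differed by -0.26 (SE 0.15), and by -0.16 without diabetic replicate 2. Aqp1, another water channel of the retina, differed by -0.05 (SE 0.08). Kcnj16, which forms channels together with Kir4.1, lay below the filter at 7.11, 7.74 and 8.14 in the diabetic pools and at 7.76 and 8.77 in the controls.

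The acid and lactate list had 13 genes tested of 18 measured and 20 listed, 7 above 0 and 6 below 0, with a median of 0.00950 (between -0.07 and 5e-04 with single arrays left out). Car12, a membrane carbonic anhydrase, was at 9.99, 10.25 and 9.46 in the diabetic pools and at 10.42 and 11.09 in the controls. It differed by -0.86 (SE 0.28, limma unadjusted p = 0.0150), by -0.52 without control replicate 2, by -1.19 without control replicate 1 and by -0.30 without both arrays of high muscle signal. Its groups did not overlap, nor did those of Slc4a8, a bicarbonate transporter, at -0.22, and, higher in diabetic pools, of its relative Slc4a10 at 0.08. Among all tested genes, 8.15% were lower and 9.99% higher in this way. Car12 was highest in control replicate 2, also the pool of highest pigment epithelium signal, and lowest in diabetic replicate 3. The part of pigment epithelium and muscle in the Car12 value was not tested. Car3, a carbonic anhydrase abundant in skeletal muscle, differed by -0.76 (SE 0.46) and was highest in diabetic replicate 3 and control replicate 2, both arrays of high muscle signal. It differed by -0.02 without control replicate 2 and by -1.50 without control replicate 1. Car4 lay below the filter, between 8.51 and 9.29.

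The lipid list had 18 genes tested of 25 measured and 28 listed, 9 above 0 and 9 below 0, with a median of -0.01 (between -0.05 and 0.04 with single arrays left out). Pltp, the phospholipid transfer protein, was at 12.73, 13.30 and 12.81 in the diabetic pools and at 13.19 and 13.83 in the controls. It differed by -0.56 (SE 0.21, limma unadjusted p = 0.0287), by -0.24 without control replicate 2 and by -0.88 without control replicate 1. Its highest pool, control replicate 2, was also the pool of highest pigment epithelium signal. The part of that tissue in the Pltp value was not tested. Lrp8, a receptor for reelin and Apoe, was at 12.23, 12.34 and 12.68 in the diabetic pools and at 12.73 in both controls. The groups did not overlap, and the difference was -0.31 (SE 0.14, limma unadjusted p = 0.0481). In 1 other gene of the list the groups did not overlap either: Fabp7, a fatty acid binding protein of glia, was higher in diabetic pools, by 0.36 (SE 0.175). Among all tested genes, 8.15% were lower and 9.99% higher in diabetic pools without overlap. Abca8b, the close relative of Abca8a, differed by -0.13 (SE 0.18), opposite in sign to Abca8a, and by 0.02 without control replicate 1. The difference between both relatives was not tested, and whether their probes bind both transcripts is not known here.

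Of 13 Wnt modulators and receptors measured, 4 were tested, with a median of -0.04 that lay between -0.25 and 0.10 with single control arrays left out. Frzb, a secreted Wnt antagonist, was at 12.89, 12.68 and 12.66 in the diabetic pools and at 12.58 and 12.55 in the controls, a difference of 0.18 (SE 0.10) with groups that did not overlap. It was 0.11 without diabetic replicate 1. Sfrp4, of the same family, was at 9.73, 9.97 and 10.30 in the diabetic pools and at 10.46 and 10.31 in the controls, also with groups that did not overlap. It differed by -0.39 (SE 0.21), and by -0.25 without diabetic replicate 1. Among all tested genes, 9.99% were higher and 8.15% lower in diabetic pools without overlap. Dkk2 lay below the filter, between 7.03 and 8.29, so that Dkk3 was the only one of the Dickkopf genes Dkk1 to Dkk4 that was tested.

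**Figure D5:**
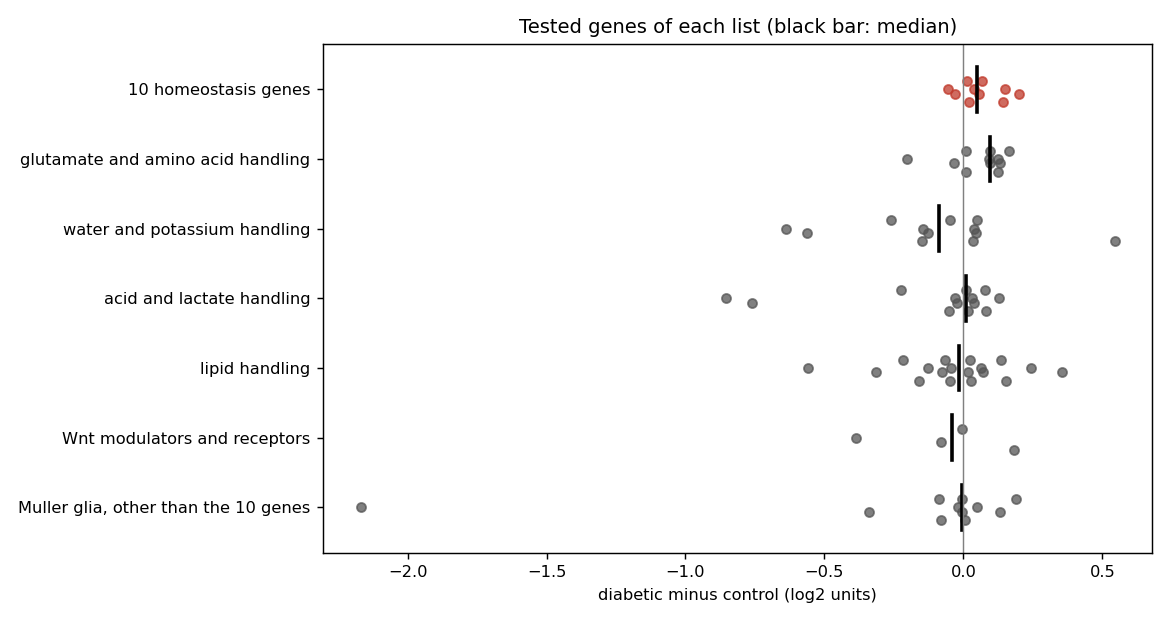
Diabetic minus control difference in log2 units for each tested gene of the 10 homeostasis genes (red), the 5 companion lists and the other Muller glia markers (grey), with a black bar at each list's median. The 10 genes lie between -0.06 and 0.20; the lowest points are Spc25 at -2.17 and Car12 at -0.86.

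Abca8a and Kcnj10 had the widest ranges of the 10 genes over the 5 pools, 0.44 and 0.42, wider than those of 70.3% and 67.7% of tested genes. The genes closest to Abca8a in pattern, by the root mean square difference of centred log2 values over the 5 pools, were Pex7, a peroxisomal import receptor (0.03), the predicted gene Gm10419 (0.03) and Csnk1e, a casein kinase (0.03). For Kcnj10 they were Mnt, a transcriptional repressor (0.02), Epb41l1, a cytoskeletal protein of neurons (0.02), and Vps51, a trafficking subunit (0.02). With 5 pools such a match is a description of these arrays.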

How the data were processed

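Total RNA of 3 diabetic and 2 control retinal pools was measured on 1 array each, grouped by sample title. The authors' deposited values are signal intensities on a linear scale, 1 per probe set, with a mean of 2500.0 in all 5 arrays once the lowest and highest 2% were left out; how they were summarized is not stated in the labels. Of 45101 probe sets, 34945 had 1 gene symbol, 932 several and 9160 none listed, and 64 were controls; older symbols were replaced through their Entrez IDs, of which 34741 matched the RefSeq genes of GRCm38.p6.

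Values were taken as log2(signal + 120.6), the pseudocount being the 20th percentile of all values, which understates fold changes of dim genes. Array medians differed by 0.15, under the limit of 0.2 for rescaling. The upper 60% of 18193 genes by mean were tested with limma 3.58.1 in R 4.3.3 (eBayes with a trend, 3 residual degrees of freedom, Benjamini-Hochberg adjustment). The steps were tested on simulated data whose changes were far larger than the differences of the 10 genes. Recovery of changes as small as theirs was not tested. Members and lists were chosen with earlier results of these data known, so lists have no test. Named were the 10 genes, the 2 of smallest p in each companion list, the relatives Slc1a2, Kcnj16, Aqp1, Abca8b, Car4 and Dkk2, fixed markers, and the 3 closest patterns for the 2 members of widest range; other genes whose groups did not overlap were named after their values were seen. Alternatives covered normalization, pseudocount, filter, probe set rule, variance model, a replicate block and arrays left out. The number of arrays limits the precision. Plots were made with matplotlib 3.10.9.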

Additional observations from a re-analysis of the deposited data

Results flagged for a closer look

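The control probe sets for beta-actin, which take no part in the comparison of genes, gave a 3' to 5' signal ratio of 4.32 in diabetic replicate 2, above both control arrays at 2.52 and 2.71. The ratio for Gapdh was 0.90 there, against 0.82 and 0.81 in the control arrays. Diabetic replicate 2 also held the lowest values of the dimmer probe sets 1426341_at of Slc1a3, 1425382_a_at of Aqp4 and 1417312_at of Dkk3. The part of RNA quality in them was not tested.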

How the results depend on the processing

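Over 18 alternatives, 0 of the 10 genes passed, and the smallest adjusted p (limma) was 0.826. The median of the 10 differences was 0.05, between 0.02 and 0.10 with single arrays left out, and 0.09 with a replicate block. Of 180 alternative values of single genes, 16 had the other sign, and in each case the cause was not tested. Quantile normalization gave -0.000339 for Slc1a3 and -0.00641 for Apoe, centring on medians 0.00256 for Clu, and the mean over probe sets 0.0229 for Glul. Array weights gave -0.00188 for Slc1a3 and -0.00519 for Kcnj10, and leaving out both arrays of high muscle signal -0.00576 for Car2 and 0.0257 for Clu. Leaving out 1 array at a time gave -0.233 to 0.119 for Glul, -0.0499 to 0.0774 for Slc1a3, -0.0624 to 0.149 for Kcnj10, -0.0278 to 0.107 for Car2, -0.0807 to 0.00191 for Clu and -0.0463 to 0.0858 for Apoe. Aqp4 (0.02 to 0.27), Car14 (0.01 to 0.12), Abca8a (0.07 to 0.33) and Dkk3 (0.05 to 0.25) stayed above 0. Without both arrays of high muscle signal, Glul was at -0.274 and Abca8a at 0.0133.

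Over all genes, 0 passed, 0 to 1 with single arrays left out, 2 with a replicate block and 2 without both arrays of high muscle signal. The list medians with single arrays left out were 0.0717 to 0.0920 for glutamate and amino acids, -0.0822 to -0.0353 for water and potassium, -0.0720 to 5e-04 for acid and lactate, -0.0490 to 0.0441 for lipids and -0.25 to 0.10 for Wnt. Without both arrays of high muscle signal they were 0.00830 for water and potassium, -0.0290 for acid and lactate, 0.0162 for lipids and 0.10 for Wnt. Fits without a control array, or without both high muscle arrays, leave 1 control array, which is assumed to vary like the diabetic ones. The shared replicate numbers are not stated to pair pools. Deviations from group means correlated across genes at 0.13 for number 1 and -0.14 for number 2. With 2 control arrays these deviations mirror each other, so the crossed numbers gave -0.13 and 0.14. Pairing was not tested. Under the block, diabetic replicate 3, which has no partner, does not enter the difference.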
